A study of Homo sapiens with 22 samples.

Results

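The genes described here are 10 feedback and target genes of the RAS-RAF-MEK-ERK (MAPK) pathway: DUSP1, DUSP4, DUSP5, DUSP6, SPRY2, SPRY4, SPRED1, ETV4, ETV5 and PHLDA1. They were taken by symbol from gene-level read counts, and all 10 of them were found among the 26485 symbols of each of 22 RNA-seq libraries. The cells are labelled MDA-MB231, a long-used human breast epithelial line without hormone receptors or HER2 amplification, and the treatments act on HDAC6, which removes acetyl groups from tubulin in the cytoplasm.

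The libraries form 3 experiments. In the first, wild-type cells received Nexturastat A, an HDAC6 inhibitor, at 7.65 µM for 2 days (n = 2) and were set against Ctrl cells (n = 2), whose treatment label reads DMSO. In the second, cells carried the hairpin shHDAC6-1 (n = 3) or shHDAC6-2 (n = 3) against HDAC6, labelled as HDAC6 knockdown, or the control hairpin shCtrl (n = 3, labelled wild type), all taken at day 0. In the third, wild-type cells received the HDAC6 inhibitors HPOB (n = 3) or Tubastatin A (n = 3) or the solvent DMSO (n = 3) and were taken at day 2. Titles of the Tubastatin A libraries carry the letters TSA, but the treatment label reads Tubastatin A and was followed. The labels give no dose for HPOB or Tubastatin A and do not say whether hairpin cells were clones or pools. The labels do not say that replicates are separate cultures, so p-values measure the spread between these libraries, which may be technical.

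ERK, the last kinase of the cascade, raises the transcription of its own inhibitors. Dual-specificity phosphatases (DUSP) remove the activating phosphates of MAP kinases, and Sprouty and Spred proteins hold back the cascade nearer to RAS. ETV4 and ETV5 are ETS-family transcription factors whose genes follow ERK activity, so mRNAs of this group are widely read as a record of pathway output.

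DUSP1 and DUSP6, which moved apart from each other in these data, are shown by their promoters. DUSP1 encodes a nuclear phosphatase that acts on p38, JNK and ERK and is induced by stress and growth signals. DUSP6 encodes a cytoplasmic phosphatase with a preference for ERK. Each sequence covers the 250 bases before the RefSeq start on the minus strand of GRCh38.p14, at chr5:172771196-172771445 for DUSP1 and chr12:89352502-89352751 for DUSP6. The DUSP1 window adjoins the GENCODE 29 span of its gene. The DUSP6 window lies inside the span of its gene there, 89347232 to 89353271, so it is upstream by the RefSeq start alone. Capitals mark TGACGTCA and TGACG, on either strand, in DUSP1, and AGGAAG, on either strand, in DUSP6.
DUSP1: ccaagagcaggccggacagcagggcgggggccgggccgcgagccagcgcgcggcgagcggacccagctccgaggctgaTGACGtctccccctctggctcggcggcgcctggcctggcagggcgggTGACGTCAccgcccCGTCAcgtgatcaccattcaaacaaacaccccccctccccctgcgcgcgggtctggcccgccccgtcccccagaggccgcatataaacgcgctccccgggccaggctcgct
DUSP6: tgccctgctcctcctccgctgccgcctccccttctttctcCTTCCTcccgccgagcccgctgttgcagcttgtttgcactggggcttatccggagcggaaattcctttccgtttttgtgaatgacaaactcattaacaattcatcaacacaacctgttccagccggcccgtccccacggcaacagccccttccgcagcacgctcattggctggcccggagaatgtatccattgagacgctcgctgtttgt
The cyclic-AMP response element TGACGTCA began 125 bases before the DUSP1 start and was present in 1.65% of 35116 RefSeq start windows of that length. Its core TGACG, which the full element contains on both strands, had 4 matches before DUSP1 and 0 before DUSP6, and 21.2% of the windows held it. The ETS-type word AGGAAG had 1 match in DUSP6, 210 bases before the start on the opposite strand, and 0 in DUSP1, and 28.7% of the windows held it. Another ETS word, CCGGAA, the AP-1 word TGANTCA, the word TGAATGNA (bound by ETV factors with a partner) and the CArG box of SRF had 0 matches in either window. Promoter entries were matched for 6 of the 10 members, and those of DUSP4, DUSP5, ETV4 and ETV5 were not used here.

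Libraries held 58.0 to 59.4 M counts (M for 1e6) with Nexturastat A and 60.2 to 61.6 M in Ctrl, 50.9 to 85.9 M with shHDAC6-1, 58.9 to 63.5 M with shHDAC6-2 and 52.8 to 64.8 M in shCtrl, and 32.1 to 40.9 M with HPOB, 36.9 to 41.3 M with Tubastatin A and 31.2 to 37.4 M in DMSO. The cells of the experiments were not alike. Replicates 1 and 2 of all hairpin groups, shCtrl included, had 21.0 to 23.3 CPM (counts per 1e6 counts of the library) of CD44 and 17.9 to 36.4 CPM of AXL, genes that MDA-MB231 cells express strongly, against 259 to 626 and 284 to 1621 CPM in the other 16 libraries. They also had 140 to 184 CPM of CDKN2A, whose gene MDA-MB231 cells have lost, and 337 to 679 CPM of IRS4. The summed level of the 6 genes chosen as expressed by the line was 800 to 888 CPM in those 6 libraries and 2804 to 4803 CPM in the others. In replicate 3, shCtrl had CDKN2A and IRS4 at 0, whereas shHDAC6-1 and shHDAC6-2 had 7.11 and 24.1 CPM of CDKN2A and 7.31 and 22.3 CPM of IRS4. NKX2-1, a lung and thyroid transcription factor gene, was at 0.73 to 1.52 CPM in the libraries of the DMSO experiment, against 52.5 to 64.6 CPM in Ctrl and 60.3 CPM in the third shCtrl library. Hairpin replicates 1 and 2 had 12.0 to 17.4 CPM of it. Of the other airway and lung genes listed, MUC5AC, MUC5B and the scarce SFTPB were also lower in DMSO than in Ctrl. NAPSA was higher, at 1.28 to 2.01 CPM in DMSO against 0.73 to 0.96 CPM in Ctrl. Replicate 3 of the hairpin experiment is therefore described apart. Differences in the share of cells and in RNA per cell cannot be told apart in bulk libraries.

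The control libraries give the level of each gene in each stock of cells. DUSP6 had 29.02 and 27.59 CPM in shCtrl replicates 1 and 2, 149.5, 149.9 and 149.7 CPM in DMSO, and 965.0 and 852.5 CPM in Ctrl. The stocks did not overlap, and shCtrl replicate 3 lay between DMSO and Ctrl at 273.3 CPM. The fit gave -5.17 ± 0.10 (log2 fold change ± SE) for shCtrl replicates 1 and 2 over Ctrl, a level 36.1-fold lower (adjusted p = 3.81e-18), -2.61 ± 0.08 for DMSO over Ctrl, a level 6.11-fold lower (adjusted p = 8.95e-16), and -2.56 ± 0.09 for shCtrl replicates 1 and 2 over DMSO (adjusted p = 1.73e-15). All adjusted p-values are from edgeR's quasi-likelihood test with Benjamini-Hochberg adjustment over all genes tested, called where under 0.05.

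DUSP4, a nuclear phosphatase for ERK, JNK and p38, followed the same order. It had 25.5 and 26.8 CPM in shCtrl replicates 1 and 2, 282.5, 285.2 and 291.9 CPM in DMSO, and 920.8 and 776.7 CPM in Ctrl. Its fold change was -5.19 ± 0.11 for shCtrl replicates 1 and 2 over Ctrl (adjusted p = 6.40e-18) and -1.58 ± 0.08 for DMSO over Ctrl (adjusted p = 2.71e-12). In shCtrl replicate 3 it stood at 462.9 CPM, between DMSO and Ctrl. DUSP5, a nuclear phosphatase specific for ERK, had 38.8 and 37.0 CPM in shCtrl replicates 1 and 2, 163.2, 174.6 and 156.3 CPM in DMSO, and 160.7 and 144.9 CPM in Ctrl. Here DMSO and Ctrl overlapped, with a fold change of 0.10 ± 0.08 (adjusted p = 0.307), while shCtrl replicates 1 and 2 were lower than Ctrl by -2.18 ± 0.09 (adjusted p = 9.60e-14).

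DUSP1 went the other way. It had 154.1 and 148.1 CPM in shCtrl replicates 1 and 2, 110.1, 102.8 and 107.1 CPM in DMSO, and 34.70 and 34.17 CPM in Ctrl, so Ctrl was the low group. Relative to Ctrl it was 3.90-fold higher in shCtrl replicates 1 and 2 (1.96 ± 0.09, adjusted p = 2.04e-13) and 3.07-fold higher in DMSO (1.62 ± 0.08, adjusted p = 3.66e-12). In shCtrl replicate 3 it was 38.5 CPM, close to the Ctrl libraries. The step between shCtrl replicates 1 and 2 and DMSO was 0.34 ± 0.08 (adjusted p = 5.19e-04), and it became -0.31 once trends of counts with GC content and length were removed, so its direction is not settled.

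The Sprouty and Spred members were low in the same libraries. SPRY4, a cytoplasmic inhibitor of growth factor signals to RAS, had 20.3 and 23.6 CPM in shCtrl replicates 1 and 2, 120.9, 113.7 and 120.8 CPM in DMSO, and 494.8 and 415.8 CPM in Ctrl. The 3 groups did not overlap, with fold changes over Ctrl of -4.54 ± 0.12 in shCtrl replicates 1 and 2 (adjusted p = 5.64e-17) and -1.95 ± 0.09 in DMSO (adjusted p = 6.83e-13). SPRY2, its relative, had 28.9 and 26.4 CPM in shCtrl replicates 1 and 2, 67.4, 65.1 and 69.0 CPM in DMSO, and 99.5 and 90.5 CPM in Ctrl. The same order held, by smaller steps of -1.95 ± 0.10 and -0.51 ± 0.08 over Ctrl (adjusted p = 6.74e-13 and 2.52e-05). SPRED1, which brings neurofibromin to the membrane to switch RAS off, had 13.6 and 10.4 CPM in shCtrl replicates 1 and 2, 85.7, 84.3 and 81.9 CPM in DMSO, and 149.2 and 129.9 CPM in Ctrl. It fell by 3.72 and by 0.74 on the log2 scale relative to Ctrl (adjusted p = 1.30e-15 and 1.32e-06).

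The transcription factors and PHLDA1 shared one pattern. DMSO lay close below Ctrl, and shCtrl replicates 1 and 2 lay far below both, as for SPRED1 above. ETV4 had 10.8 and 12.1 CPM in shCtrl replicates 1 and 2, 71.4, 73.5 and 80.3 CPM in DMSO, and 104.0 and 98.1 CPM in Ctrl. ETV5 had 13.2 and 12.7 CPM in shCtrl replicates 1 and 2, 86.3, 81.1 and 87.0 CPM in DMSO, and 134.5 and 138.6 CPM in Ctrl. PHLDA1, a pleckstrin homology-like protein and frequent readout of ERK activity, had 67.8 and 69.9 CPM in shCtrl replicates 1 and 2, 753.0, 725.7 and 781.4 CPM in DMSO, and 1251 and 1052 CPM in Ctrl. Relative to Ctrl, fold changes in shCtrl replicates 1 and 2 were -3.31 ± 0.11, -3.57 ± 0.10 and -4.23 ± 0.10 for ETV4, ETV5 and PHLDA1, and in DMSO -0.44 ± 0.09, -0.70 ± 0.08 and -0.62 ± 0.08 (adjusted p at most 2.32e-04).

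**Figure D1:**
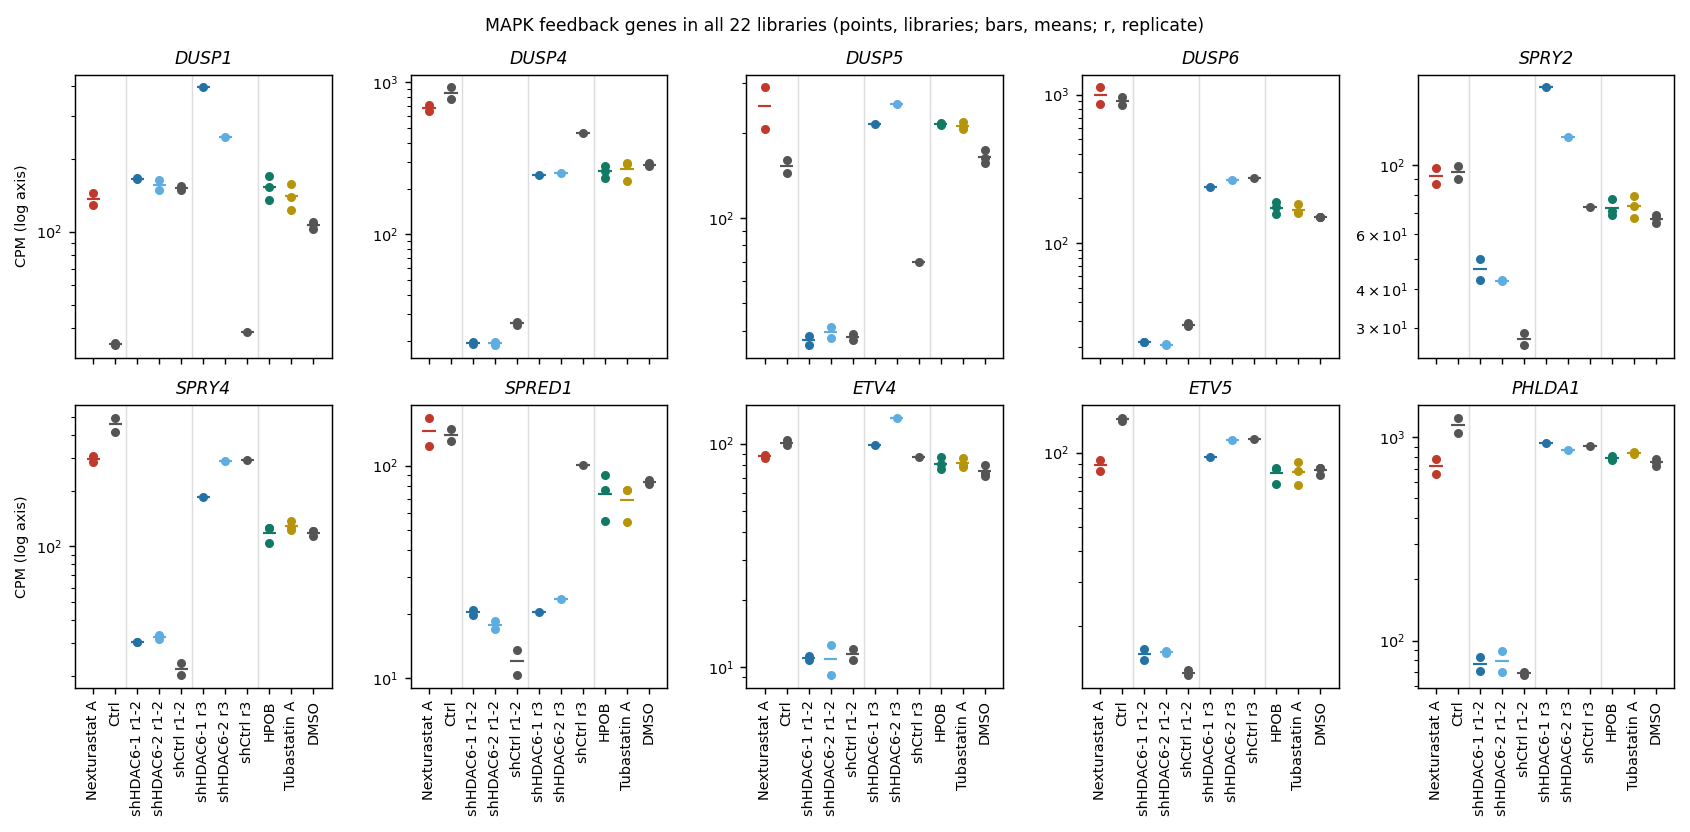
CPM (log axis, each panel on its own range) of the 10 genes in all 22 libraries; points are libraries and bars are group means. Replicates 1 and 2 of the hairpin experiment are low for every gene but DUSP1, and Ctrl and shCtrl replicate 3 are the low libraries for DUSP1.

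Over all members, shCtrl replicates 1 and 2 differed from Ctrl in 10 of 10 genes, 1 higher and 9 lower, against 76.5% of all genes called (41.5% higher, 34.9% lower). They differed from DMSO in 10 of 10, 1 higher and 9 lower, against 77.2% (42.5% higher, 34.7% lower). DMSO differed from Ctrl in 9 of 10, 1 higher and 8 lower, against 62.9% (30.6% higher, 32.3% lower). Because most genes differed between these cells, the counts of calls say little, and the sizes and directions say more. The members' median log2 fold change was -3.64 in shCtrl replicates 1 and 2 over Ctrl, against 0.14 over all genes. It was -2.73 over DMSO, against 0.13, and -0.66 in DMSO over Ctrl, against 0.00. Scaling by library totals moved the median of all genes for shCtrl replicates 1 and 2 over Ctrl to 0.31, and removal of GC and length trends to -0.30, shifts far smaller than the members' changes. Taking all 3 shCtrl libraries as 1 group left DUSP5 as the only member called over Ctrl and over DMSO. Cell stock and experiment cannot be told apart in these comparisons, nor can sampling day in those with shCtrl. DMSO and Ctrl were both taken at day 2.

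**Figure D2:**
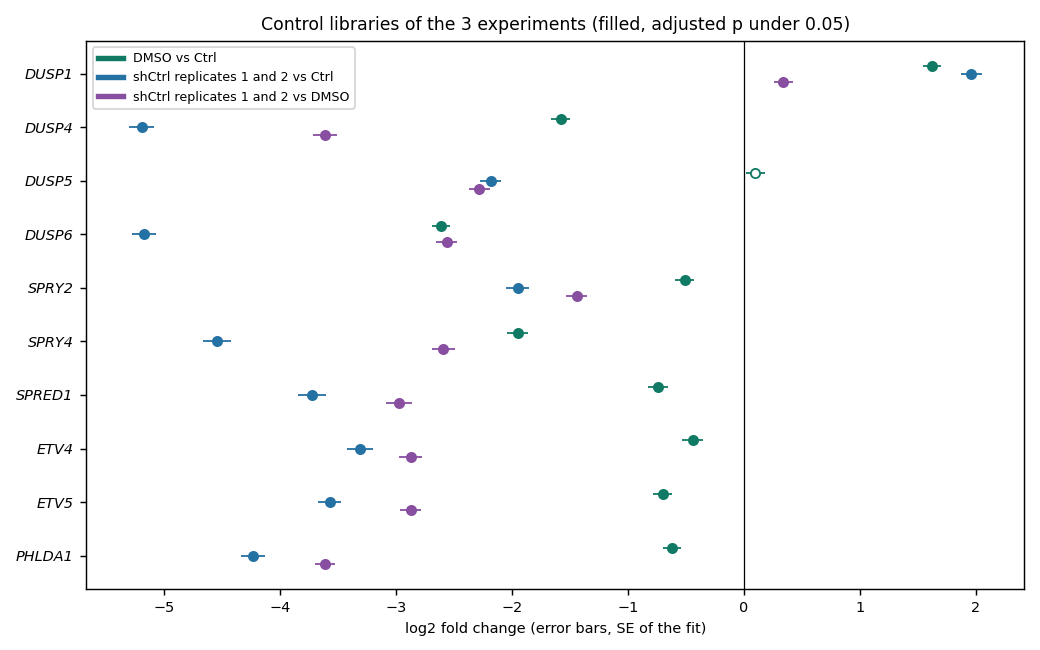
Log2 fold changes (x axis; error bars, SE of the fit) of the 10 genes between control libraries, with filled points for adjusted p under 0.05. All genes but DUSP1 lie at or below -1.44 in shCtrl replicates 1 and 2 over Ctrl or DMSO, and DUSP5 is the open point for DMSO over Ctrl.

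Per kilobase of the longest GENCODE 29 transcript, the order of the genes also differed between stocks. In shCtrl replicates 1 and 2, DUSP1 led at 74.8 CPM per kilobase, ahead of DUSP5 at 14.8 and SPRY2 at 10.2, and DUSP6 stood at 6.43. In DMSO, PHLDA1 led at 93.4, ahead of DUSP5 at 64.4, DUSP1 at 52.8 and DUSP4 at 51.8. In Ctrl, DUSP6 led at 206.5, ahead of DUSP4 at 153.3 and PHLDA1 at 142.7, and DUSP1 was the last of the 10 at 17.1. This scale depends on which transcript is used for the length.

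Among other MAPK phosphatases, DUSP2, DUSP8 and DUSP9 were highest in shCtrl replicates 1 and 2, where DUSP4 and DUSP6 were lowest. In DMSO, DUSP9 was lower than in Ctrl, as DUSP4 and DUSP6 were. DUSP9, a cytoplasmic phosphatase that acts mainly on ERK, had 199 to 211 CPM in shCtrl replicates 1 and 2, 0.109 to 0.321 CPM in DMSO and 2.09 to 2.52 CPM in Ctrl, a fold change over Ctrl of 6.30 ± 0.15 for shCtrl replicates 1 and 2 (adjusted p = 2.30e-17) and -3.28 ± 0.25 for DMSO (adjusted p = 1.20e-09). DUSP8, which acts on JNK and p38, was higher than Ctrl in both, by 4.91 ± 0.19 and 2.27 ± 0.19 (adjusted p = 2.77e-14 and 3.88e-09). DUSP2 had 12.0 to 13.1 CPM in shCtrl replicates 1 and 2 and 0 counts in both Ctrl libraries, so it was at least 509-fold higher, taking 3 counts over the 2 Ctrl libraries as the floor. DUSP10, a JNK and p38 phosphatase, had 54.1 to 59.2 CPM in DMSO and 5.07 to 6.26 CPM in Ctrl (3.30 ± 0.13, adjusted p = 5.67e-14). Of the 6 genes of this list, 3 were higher and 3 lower in shCtrl replicates 1 and 2 than in Ctrl. In DMSO 3 were higher and 2 lower than in Ctrl. Over all genes, 41.5% were called higher and 34.9% lower in shCtrl replicates 1 and 2, and 30.6% and 32.3% in DMSO.

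**Figure D3:**
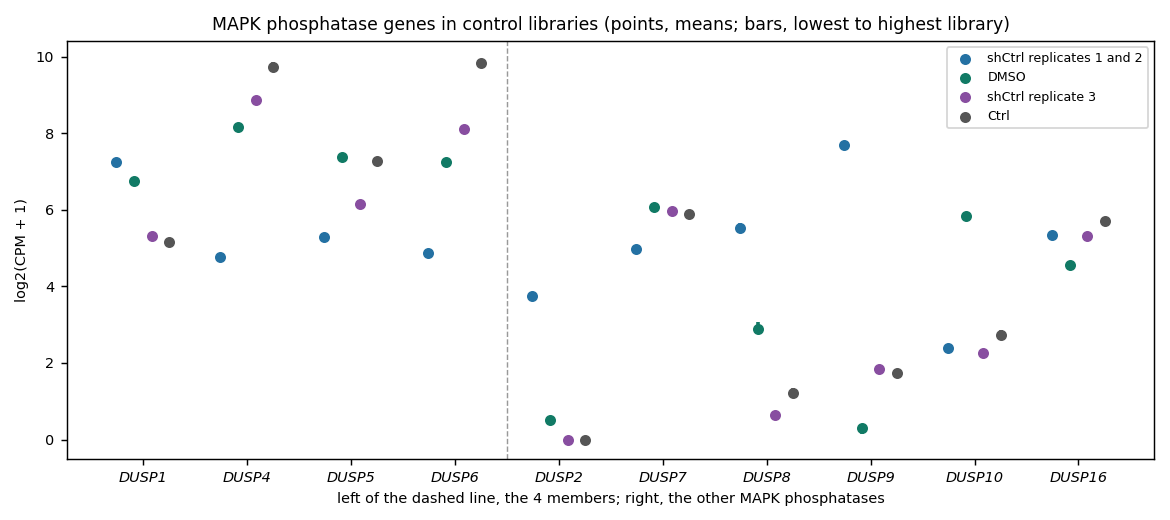
Log2(CPM + 1) of 10 MAPK phosphatase genes in the control libraries of each stock, with points for means and bars for the range of libraries. DUSP4 and DUSP6 are lowest, and DUSP2, DUSP8 and DUSP9 highest, in shCtrl replicates 1 and 2, while shCtrl replicate 3, at 38.5 CPM, lies near Ctrl for DUSP1.

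The next counts for shCtrl replicates 1 and 2 stand against 41.5% of all genes called higher and 34.9% called lower. Those for DMSO stand against 30.6% and 32.3%. Of 4 other Sprouty and Spred genes, 1 was higher and 3 were lower in shCtrl replicates 1 and 2 than in Ctrl. SPRED2 changed by -3.04 ± 0.10, SPRY1 by -2.49 ± 0.11, SPRED3 by -1.79 ± 0.15 and SPRY3, at 0.23 to 0.33 CPM in Ctrl, by 4.06 ± 0.40 (adjusted p at most 2.35e-08). In DMSO 3 of them were lower than in Ctrl, SPRY1 by -2.26 ± 0.10, SPRED2 by -2.04 ± 0.09 and SPRY3, which had at most 0.064 CPM in DMSO. Of 15 other ERK-induced genes, 7 were higher and 8 lower in shCtrl replicates 1 and 2 than in Ctrl. All genes were split between higher and lower too. The delayed target FOSL1 had 18.6 to 19.5 CPM in shCtrl replicates 1 and 2 and 332 to 356 CPM in Ctrl (-4.34 ± 0.10), and ETV1, related to ETV4, fell by 4.44. The immediate early gene FOS instead had 120 to 122 CPM in shCtrl replicates 1 and 2 and 5.17 to 5.48 CPM in Ctrl (4.34 ± 0.12). Of 22 genes of the ERK cascade itself, 9 were higher and 12 lower in shCtrl replicates 1 and 2, with the receptor EGFR at -3.13 ± 0.13 and the RAS exchange factor SOS2 at -2.65 ± 0.10.

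Nexturastat A against Ctrl asks how the feedback genes stand after 2 days of HDAC6 inhibition in the cells where most of their levels were highest. DUSP1 had 144.8 and 128.6 CPM with Nexturastat A, against 34.70 and 34.17 CPM in Ctrl, a 3.73-fold difference (1.90 ± 0.13, adjusted p = 3.83e-04). Both treated libraries lay far above both controls. DUSP5 had 289.9 and 206.4 CPM with Nexturastat A and 160.7 and 144.9 CPM in Ctrl (0.61 ± 0.17, adjusted p = 0.0321). The groups did not overlap, but the treated libraries lay far apart from each other, and the change of DUSP5 was 0.35 without Nexturastat A replicate 1 and 0.13 once GC and length trends were removed.

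SPRY4, ETV5 and PHLDA1 fell. SPRY4 had 286.3 and 305.3 CPM with Nexturastat A, against 494.8 and 415.8 CPM in Ctrl (-0.71 ± 0.14, adjusted p = 0.00904). ETV5 had 84.3 and 93.6 CPM with Nexturastat A, against 134.5 and 138.6 CPM in Ctrl (-0.71 ± 0.12, adjusted p = 0.00636). PHLDA1 had 785.1 and 656.5 CPM with Nexturastat A, against 1251 and 1052 CPM in Ctrl (-0.77 ± 0.16, adjusted p = 0.0109). None of these 3 genes had overlapping groups. The share of all genes that separate in this way with Nexturastat A was not counted. Non-overlap in this comparison, for these and the other members, is therefore description alone.

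The other 5 members did not pass the test with edgeR. DUSP6, the ERK phosphatase with the highest level per kilobase, had 1118 and 870.6 CPM with Nexturastat A and 965.0 and 852.5 CPM in Ctrl (0.04 ± 0.16, adjusted p = 0.870). DUSP4 had 702.8 and 641.3 CPM with Nexturastat A and 920.8 and 776.7 CPM in Ctrl, without overlap (-0.43 ± 0.14, adjusted p = 0.0547), and was called by DESeq2 (adjusted p = 0.0298), with no filter on low counts (adjusted p = 0.0409) and without Nexturastat A replicate 1 (adjusted p = 0.0169) or replicate 2 (adjusted p = 0.0410). ETV4 had 86.2 and 89.3 CPM with Nexturastat A and 104.0 and 98.1 CPM in Ctrl, also without overlap (-0.29 ± 0.12, adjusted p = 0.0903). The groups of SPRY2 and SPRED1 overlapped, at 86.8 and 98.0 against 90.5 and 99.5 CPM for SPRY2 and at 123.7 and 168.4 against 129.9 and 149.2 CPM for SPRED1.

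Thus 5 of 10 members were called, 2 higher and 3 lower, while 36.6% of all genes were called, 21.1% higher and 15.5% lower. The members' median log2 fold change was -0.21, against 0.03 over all genes. Removal of GC and length trends, which moved the median of all genes to -0.23, added DUSP4 at -0.65, SPRY2 at -0.55 and ETV4 at -0.75 to the lower calls and took DUSP5 out. Without Ctrl replicate 1, and likewise without Ctrl replicate 2, DUSP1 was the only member called.

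Markers of cell types differed as well. The 6 genes chosen as expressed by MDA-MB231 cells summed to 2804 to 3494 CPM with Nexturastat A, against 4432 to 4527 CPM in Ctrl, with CAV1 at 305 to 391 against 673 to 796 CPM and MMP14 at 64.0 to 107.4 against 213 to 229 CPM. VIM and AXL were lower too. The groups overlapped for CD44, at 317.7 and 370.8 against 340.9 and 332.8 CPM, and for EGFR, at 215.4 and 245.5 against 306.2 and 245.3 CPM. The 5 airway and lung genes summed to 38.6 to 45.3 CPM with Nexturastat A, against 222 to 330 CPM in Ctrl. Most of that difference came from MUC5AC, at 0.62 to 3.49 against 159 to 245 CPM. NKX2-1, MUC5B and the scarce SFTPB were lower too. NAPSA was higher, at 2.98 and 1.84 CPM with Nexturastat A against 0.96 and 0.73 CPM in Ctrl. The 3 fibroblast genes summed to 42.6 to 44.0 CPM with Nexturastat A, against 10.5 to 13.3 CPM in Ctrl, all 3 of them higher. The part of these differences in the changes of the members was not tested.

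Other genes of the pathway moved in both directions. The counts below stand against 21.1% of all genes called higher and 15.5% called lower. Of 5 other MAPK phosphatases tested, 3 were higher with Nexturastat A, namely DUSP8 (2.17 ± 0.33), DUSP10 (1.23 ± 0.21) and DUSP16 (0.49 ± 0.15), and 0 were lower; DUSP16 was not called with GC and length trends removed. SPRY1, another Sprouty gene, had 36.0 to 39.2 CPM with Nexturastat A and 79.8 to 85.8 CPM in Ctrl (-1.23 ± 0.13, adjusted p = 0.00138). SPRED2 fell by 0.51, and SPRY3 was higher by 3.15 ± 0.46 at 1.89 to 3.45 CPM with Nexturastat A and 0.23 to 0.33 CPM in Ctrl. Of 15 other ERK-induced genes 8 were higher and 2 lower, and the highest changes were those of the transcription factor genes EGR2 (2.09 ± 0.36), MYC (2.05 ± 0.14) and EGR1 (1.11 ± 0.28) and of IER2 (1.10 ± 0.12). Of 22 ERK cascade genes 0 were higher and 6 lower, among them the exchange factors SOS2 (-1.17 ± 0.14) and SOS1 (-0.85 ± 0.12) and the RAS GTPase activators RASA1 (-0.77 ± 0.12) and NF1 (-0.67 ± 0.14). Of 13 ERK-regulated transcription factor and kinase genes 1 was higher and 3 lower, with MKNK1 at 0.46 ± 0.14 and ELK4 at -0.60 ± 0.19.

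The hairpins ask what loss of HDAC6 mRNA does to the same genes. HDAC6 had 12.6 and 11.8 CPM with shHDAC6-1 and 12.2 and 13.6 CPM with shHDAC6-2, against 47.8 and 54.6 CPM in shCtrl, in replicates 1 and 2 (-1.99 ± 0.14, adjusted p = 9.52e-10, and -1.90 ± 0.14, adjusted p = 1.77e-09). In replicate 3 it had 9.20 CPM with shHDAC6-1 and 11.6 CPM with shHDAC6-2, against 24.9 CPM in shCtrl. Both hairpins are set against the same shCtrl libraries, so their changes share that reference.

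In replicates 1 and 2, all 3 Sprouty and Spred members rose with both hairpins. SPRY2 had 42.65 and 50.03 CPM with shHDAC6-1 and 42.6 and 42.3 CPM with shHDAC6-2, against 28.9 and 26.4 CPM in shCtrl (0.82 ± 0.13, adjusted p = 4.54e-05, and 0.71 ± 0.13, adjusted p = 2.34e-04). SPRY4 had 30.4 and 30.4 CPM with shHDAC6-1 and 31.6 and 33.3 CPM with shHDAC6-2, against 20.3 and 23.6 CPM in shCtrl (0.55 ± 0.14, adjusted p = 0.00359, and 0.66 ± 0.13, adjusted p = 7.65e-04). SPRED1 had 21.0 and 19.7 CPM with shHDAC6-1 and 18.5 and 16.9 CPM with shHDAC6-2, against 13.6 and 10.4 CPM in shCtrl (0.85 ± 0.15, adjusted p = 1.84e-04, and 0.66 ± 0.15, adjusted p = 0.00204). Every hairpin library lay above both shCtrl libraries for these genes. The share of all genes that separate in this way was not counted, so this is description alone.

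In the main edgeR fit the phosphatase members missed the threshold, DUSP4 and DUSP6 narrowly. DUSP6 had 21.8 and 21.5 CPM with shHDAC6-1 and 20.7 and 20.8 CPM with shHDAC6-2, against 29.02 and 27.59 CPM in shCtrl (-0.31 ± 0.13, adjusted p = 0.0808, and -0.35 ± 0.13, adjusted p = 0.0519). DUSP4 had 19.8 and 19.0 CPM with shHDAC6-1 and 18.9 and 19.8 CPM with shHDAC6-2, against 25.5 and 26.8 CPM in shCtrl (-0.35 ± 0.14, adjusted p = 0.0511, and -0.34 ± 0.13, adjusted p = 0.0654). For both genes all 4 hairpin libraries lay below shCtrl, a separation whose share over all genes was likewise not counted. DESeq2 called DUSP4 with shHDAC6-1 (adjusted p = 0.0390) and with shHDAC6-2 (adjusted p = 0.0409) and DUSP6 with shHDAC6-2 (adjusted p = 0.0269). Voom called DUSP4 with shHDAC6-1 (adjusted p = 0.0397). Within edgeR, a minimum mean CPM of 5 called both genes with both hairpins (adjusted p from 0.0212 to 0.0313). A replicate block in edgeR called DUSP4 with both (adjusted p = 0.0304 and 0.0392) and DUSP6 with shHDAC6-2 (adjusted p = 0.0300). Whether these genes pass thus depends on the tool, the filter and the model. DUSP1 stood at 164.5 and 166.5 CPM with shHDAC6-1 and 148.0 and 163.5 CPM with shHDAC6-2, against 154.1 and 148.1 CPM in shCtrl, and the changes of DUSP1 and DUSP5 were 0.04 to 0.21. Those of ETV4, ETV5 and PHLDA1 were 0.02 to 0.37 and were not called.

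For each hairpin, 3 of 10 members were called, 3 higher and 0 lower. Over all genes 30.5% were called with shHDAC6-1, 15.3% higher and 15.2% lower, and 27.6% with shHDAC6-2, 14.4% higher and 13.2% lower. The members' median log2 fold change was 0.22 with shHDAC6-1 and 0.23 with shHDAC6-2, against -0.02 and 0.00 over all genes. Between the hairpins, shHDAC6-2 over shHDAC6-1, 0 members and 0 of 17702 genes were called with edgeR (0.0%; 1107 genes at an unadjusted p under 0.05) and 0 with DESeq2 or voom, the members ranged over -0.18 to 0.11, and their 95% intervals lay within -0.49 to 0.39. Other settings called some genes between the hairpins: 12 without a filter on low counts, 57 with these groups fitted alone, and 1 to 66 as single libraries were left out, the count being 66 without shCtrl replicate 2. In each of these, 0 members were called. With GC and length trends removed, 9 members passed for shHDAC6-1, 7 of them higher, and 8 for shHDAC6-2, 6 of them higher. DUSP4 and DUSP6 were the lower ones for both. That setting also called more of all genes with shHDAC6-2, 7439 against 4880, so these counts are not a result about the members alone. With replicate 3 included in the groups, 0 members and 0 genes were called with either hairpin, and SPRED1 was -1.001 with shHDAC6-1 and -1.04 with shHDAC6-2.

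**Figure D4:**
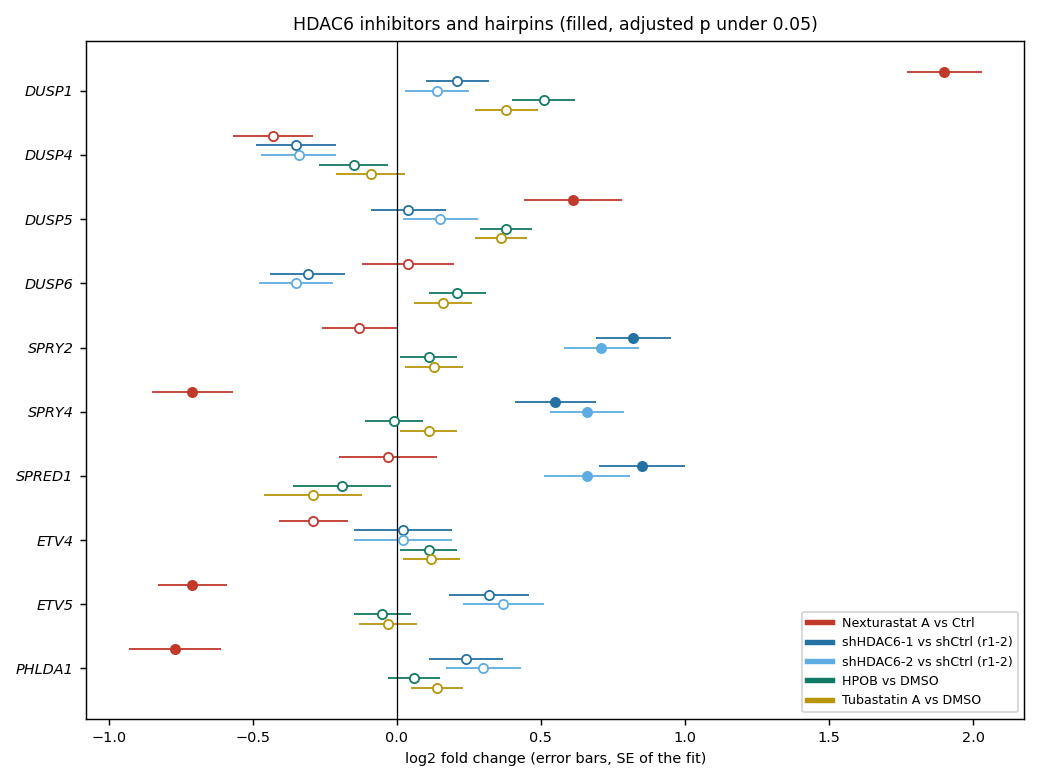
Log2 fold changes (x axis; error bars, SE of the fit) of the 10 genes for Nexturastat A, both hairpins in replicates 1 and 2, HPOB and Tubastatin A, each over the controls of its own experiment, with filled points for adjusted p under 0.05. DUSP1 with Nexturastat A stands farthest out at 1.90, the hairpin points are filled for SPRY2, SPRY4 and SPRED1, and SPRY4 is filled on both sides of 0.

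In the lists around them, 3 of 6 other MAPK phosphatases rose with both hairpins and 0 fell: DUSP10 by 0.86 ± 0.18 and 0.97 ± 0.18 with shHDAC6-1 and shHDAC6-2, DUSP7 by 0.66 ± 0.13 and 0.79 ± 0.13, and DUSP16 by 0.47 ± 0.12 and 0.60 ± 0.12. SPRED2 rose by 0.59 ± 0.13 and 0.70 ± 0.13, and SPRY3 was called with shHDAC6-2 alone, at 0.60 ± 0.18. Of 15 other ERK-induced genes, 5 rose and 2 fell with shHDAC6-1, and 5 rose and 0 fell with shHDAC6-2. ERRFI1, an inhibitor of EGFR, had 165 to 166 CPM with shHDAC6-1 and 149 to 158 CPM with shHDAC6-2, against 79.6 to 96.0 CPM in shCtrl (0.99 ± 0.12 and 0.90 ± 0.12). FOS rose by 0.64 ± 0.11 and 0.50 ± 0.11, and CCND1 by 0.43 ± 0.11 and 0.50 ± 0.11. Of 22 ERK cascade genes 9 rose and 3 fell with each hairpin. Over all genes, 15.3% rose and 15.2% fell with shHDAC6-1, and 14.4% rose and 13.2% fell with shHDAC6-2. The phosphatase gene PTPN11 rose by 0.77 ± 0.11 and 0.88 ± 0.11. Of 13 transcription factor and kinase genes 1 rose and 4 fell with each hairpin, ELK1 by -1.15 ± 0.14 and -1.07 ± 0.14 and SRF by -1.14 ± 0.12 and -1.04 ± 0.12, while ELK3 rose by 0.80 ± 0.12 and 0.84 ± 0.12.

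Replicate 3 holds 1 library a group and allows no test. DUSP1 had 393.4 CPM with shHDAC6-1 and 245.7 CPM with shHDAC6-2, against 38.54 CPM in shCtrl, ratios of 10.2 (95% counting interval 9.80 to 10.6) and 6.38 (6.11 to 6.66). DUSP5 had 214.7 and 252.5 CPM with the hairpins, against 69.7 CPM in shCtrl, ratios of 3.08 (2.98 to 3.18) and 3.62 (3.502 to 3.744). SPRED1 was the low gene, at 20.5 and 23.6 CPM with the hairpins and 100.8 CPM in shCtrl, ratios of 0.203 (0.192 to 0.214) and 0.234 (0.220 to 0.248). These intervals are exact, cover counting error alone and are too narrow, since mates of a pair appear to have been counted separately.

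SPRY2 had 177.9 CPM with shHDAC6-1 and 123.3 CPM with shHDAC6-2, against 73.1 CPM in shCtrl, and DUSP4 had 245.8 and 252.0 CPM, against 462.9 CPM. SPRY4 had 183.6 and 287.8 CPM, against 293.3 CPM. DUSP6, ETV4, ETV5 and PHLDA1 had ratios of 0.848 to 1.498. Past 2-fold were 4 of 10 members with shHDAC6-1, 3 higher and 1 lower, and 3 of 10 with shHDAC6-2, 2 higher and 1 lower, against 62.5% of all genes (26.1% higher, 36.4% lower) and 60.3% (24.6% higher, 35.8% lower). The hairpin libraries of replicate 3 carried the CDKN2A and IRS4 signal given above and the shCtrl library did not, and the part of that difference in these ratios was not tested.

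**Figure D5:**
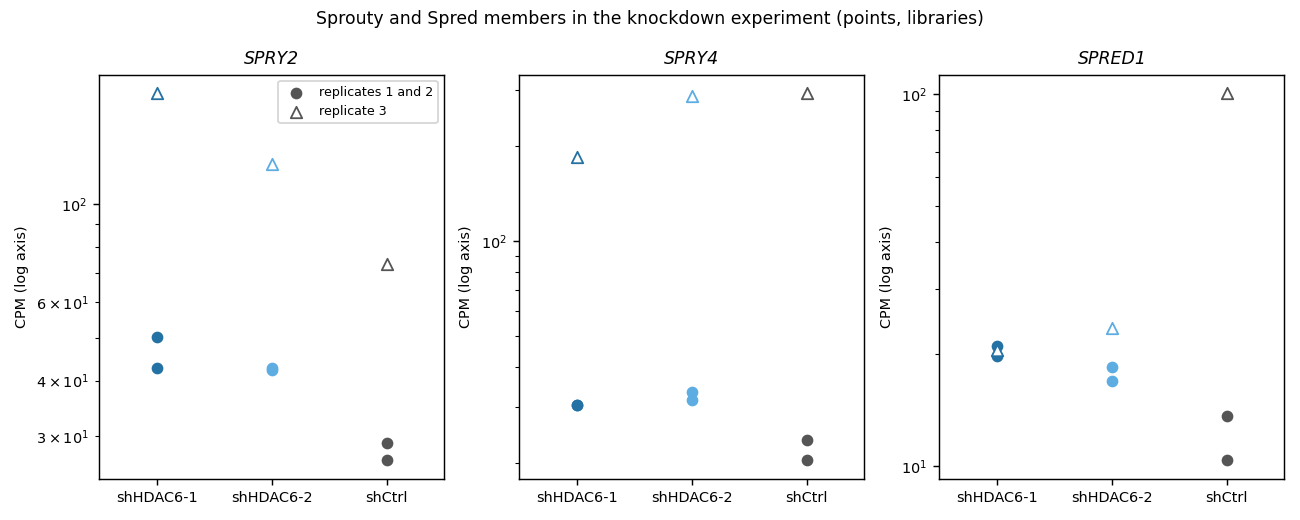
CPM (log axis) of SPRY2, SPRY4 and SPRED1 in each hairpin library, with circles for replicates 1 and 2 and triangles for replicate 3. Circles are higher with both hairpins than in shCtrl for all 3 genes, whereas the SPRED1 triangle of shCtrl, at 100.8 CPM, lies far above those of the hairpins.

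HPOB and Tubastatin A against DMSO ask whether other HDAC6 inhibitors act on the feedback genes. Both share the DMSO libraries. DUSP1 had 135.4, 153.1 and 168.9 CPM with HPOB and 122.7, 157.3 and 139.0 CPM with Tubastatin A, against 110.1, 102.8 and 107.1 CPM in DMSO (0.51 ± 0.11, adjusted p = 0.169, and 0.38 ± 0.11, adjusted p = 0.857). DUSP5 had 213.8, 214.9 and 216.2 CPM with HPOB and 206.5, 210.5 and 218.1 CPM with Tubastatin A, against 163.2, 174.6 and 156.3 CPM in DMSO (0.38 ± 0.09, adjusted p = 0.182, and 0.36 ± 0.09, adjusted p = 0.663). In both genes all 6 treated libraries lay above all 3 DMSO libraries, and neither passed the test. With DESeq2, DUSP1 (adjusted p = 0.0141) and DUSP5 (adjusted p = 0.00886) were called with HPOB and DUSP5 (adjusted p = 0.0412) with Tubastatin A. With limma voom, DUSP1 (adjusted p = 0.0371) was called with HPOB and DUSP5 (adjusted p = 0.0213) with Tubastatin A. Over all genes, DESeq2 called 102 with HPOB and 18 with Tubastatin A, and voom 54 and 26.

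DUSP6 had 157.1, 174.2 and 188.3 CPM with HPOB and 159.3, 182.7 and 161.3 CPM with Tubastatin A, against 149.5, 149.9 and 149.7 CPM in DMSO. Its fold changes were 0.21 ± 0.10 (adjusted p = 0.491) and 0.16 ± 0.10 (adjusted p = 0.857), again with no overlap. The highest DUSP6 and DUSP1 values of each compound came from HPOB replicate 3 and Tubastatin A replicate 2; without both, DUSP6 was 0.14 and 0.087 with HPOB and Tubastatin A, and DUSP1 was 0.43 and 0.28. SPRY4, one of the genes that fell with Nexturastat A, had 125.2, 104.2 and 125.3 CPM with HPOB and 127.5, 121.9 and 136.3 CPM with Tubastatin A, against 120.9, 113.7 and 120.8 CPM in DMSO (-0.01 ± 0.10 and 0.11 ± 0.10). ETV5 had 85.6, 86.9 and 74.96 CPM with HPOB and 91.3, 73.9 and 84.4 CPM with Tubastatin A, against 86.3, 81.1 and 87.0 CPM in DMSO (-0.05 ± 0.10 and -0.03 ± 0.10). PHLDA1 had 786.4, 804.5 and 774.1 CPM with HPOB and 826.5, 843.4 and 832.7 CPM with Tubastatin A, against 753.0, 725.7 and 781.4 CPM in DMSO (0.06 ± 0.09 and 0.14 ± 0.09). The groups overlapped for SPRY4 with HPOB, for ETV5 with both compounds and for PHLDA1 with HPOB.

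SPRED1 had 76.5, 90.3 and 54.9 CPM with HPOB and 76.5, 54.3 and 76.7 CPM with Tubastatin A, against 85.7, 84.3 and 81.9 CPM in DMSO (-0.19 ± 0.17 and -0.29 ± 0.17). Its lowest values came from HPOB replicate 3 and Tubastatin A replicate 2, and without both its changes were -0.014 with HPOB and -0.14 with Tubastatin A. The other Tubastatin A libraries and HPOB replicate 1 also lay below every DMSO library. HPOB replicate 3 and Tubastatin A replicate 2 stood apart in AXL, at 833.5 and 682.2 CPM, against 1377 to 1621 CPM in the other 7 libraries of the experiment. Without both of them, 0 members were called with either compound. HPOB replicate 2 stood apart in EGFR, at 60.2 CPM, against 130.3 to 179.1 CPM in the other libraries of the experiment. DUSP4, SPRY2 and ETV4 had fold changes of -0.15 to 0.13 with the compounds and were not called.

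With edgeR 0 of 10 members were called with HPOB, against 0.0261% of all genes, which is 4 genes (1588 at an unadjusted p under 0.05), and 0 of 10 with Tubastatin A, against 0.0% of 15338 genes (757 at an unadjusted p under 0.05). With HPOB, 4 members lay wholly above DMSO and 1 wholly below, against 11.4% and 10.1% of all genes. With Tubastatin A, 5 lay wholly above and 1 wholly below, against 9.79% and 6.59%. Between the compounds, which is 1 pair, 0 members and 0 genes were called for Tubastatin A over HPOB with edgeR (0.0%; 481 genes at an unadjusted p under 0.05) and 0 with DESeq2 or voom, and the members' differences ranged over -0.13 to 0.12, with 95% intervals within -0.46 to 0.34. That does not show that the compounds act alike, and their doses are not given. Side by side, DUSP1 was at 1.90 with Nexturastat A, 0.51 with HPOB and 0.38 with Tubastatin A, each over its own controls. Cells and doses differ between those experiments, and the difference was not tested.

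Across all 22 libraries, DUSP6 and the other members were compared by Pearson's r of log2(CPM + 1), as a description, since libraries of 1 stock share their levels. DUSP4 (0.964) and SPRY4 (0.962) ranked 18th and 19th of 11885 genes in likeness to DUSP6, followed among the members by ETV5 (0.900) and ETV4 (0.888). DUSP1 stood at -0.41. Pairs of members without DUSP1 had r from 0.542, for SPRY2 and SPRED1, to 0.991, for PHLDA1 with ETV4 or with ETV5. The genes most like DUSP6 were LOC389641 (0.985), TM4SF1 (0.983), GBP2 (0.982), TGFA (0.979), which encodes a ligand of EGFR, and NTN4 (0.977). TM4SF1, a membrane protein, had 10.6 to 13.7 CPM in shCtrl replicates 1 and 2, 132 to 135 CPM in DMSO and 682 to 727 CPM in Ctrl, the same order of stocks as DUSP6.

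On GRCh38 the members lie on chromosome 5 (DUSP1 from 172768090 to 172771195 and SPRY4 from 142310427 to 142326455), chromosome 10 (DUSP5 from 110497838 to 110511544), chromosome 12 (DUSP6 from 89347232 to 89353271 and PHLDA1 from 76025447 to 76033932), chromosome 13 (SPRY2 from 80335976 to 80340951), chromosome 15 (SPRED1 from 38252326 to 38357249), chromosome 17 (ETV4 from 43527844 to 43579620) and chromosome 3 (ETV5 from 186046308 to 186110318), and DUSP4 lies on chromosome 8. All but DUSP5 and SPRED1 are on the minus strand. Exons of ETV4 overlap DHX8 on the opposite strand and those of ETV5 overlap DGKG on the same strand in GENCODE 29, so reads in those exons are uncertain. Exons of DUSP6 and PHLDA1 overlap opposite-strand transcripts that are no rows of the tables, and without the strand setting of counting such reads cannot be told apart.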

How the data were processed

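Per the labels, libraries were made with a Vazyme kit from total RNA. Per the submitters' processing notes, the authors used Trim Galore 0.6.7, STAR 2.7.9a, featureCounts 2.0.3, DESeq2 1.30.1 and GRCh38. The annotation and the strand setting of counting are not stated there. Each library has 1 deposited table, which holds raw counts by gene symbol. In every library most counts from 1 to 20 were even, so mates seem to be counted separately. CPM is the count over the library total times 1e6. Each experiment was fitted apart with edgeR 4.0.16 in R 4.3.3 (TMM, filterByExpr with minimum count 10 and total 15, robust quasi-likelihood F test, Benjamini-Hochberg adjusted p under 0.05 over all genes tested). Controls of the 3 stocks shared 1 further fit. The standard error makes the squared ratio of fold change to error equal the F statistic. Fits were tested on simulated data. Alternatives were DESeq2 1.42.0, other scalings and filters, limma 3.58.1 voom, a replicate block, GC and length trends (23899 symbols matched to GENCODE 29) and left-out libraries; scaling by totals and leaving out HPOB replicate 3 with Tubastatin A replicate 2 were chosen after seeing the data. Members and lists were chosen with earlier results of these data known. Besides the members and HDAC6, at most 4 called genes per list and comparison are named, by size of change, together with the other Sprouty and Spred genes and the 5 genes most like DUSP6. An item that this rule names is not reported here. Promoters are from RefSeq.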

Additional observations from a re-analysis of the deposited data

Results flagged for a closer look

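In 5 cases the hairpin change in replicates 1 and 2 and the ratio in replicate 3 lay on opposite sides of 0. Replicate 3 has 1 library a group, and in these 5 cases its counting interval left out a ratio of 1. SPRY4 and ETV5 with shHDAC6-2 also lay below 0 in replicate 3, at -0.03 and -0.01. Their intervals, 0.961 to 1.002 and 0.963 to 1.03, held 1. In replicates 1 and 2 their changes were 0.66 ± 0.13 and 0.37 ± 0.14. The differences were not tested. SPRED1 had log2 ratios of 0.54 to 1.02 over shCtrl with shHDAC6-1 and of 0.32 to 0.84 with shHDAC6-2 across replicates 1 and 2, against -2.30 and -2.10 in replicate 3. SPRY4 with shHDAC6-1 had 0.36 to 0.58, against -0.68 in replicate 3. ETV5 with shHDAC6-1 had 0.13 to 0.35, against -0.24, and PHLDA1 with shHDAC6-2 had 0.01 to 0.38, against -0.05. In replicate 3 the median log2 ratio of all genes was -0.18 with shHDAC6-1 and -0.15 with shHDAC6-2. The values of ETV5 with shHDAC6-1 and of PHLDA1 with shHDAC6-2 lie near it. CDKN2A and IRS4 were at 0 in shCtrl replicate 3 and present in both hairpin libraries of that replicate, and their part in these differences was not tested.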

How the results depend on the processing

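Of 646 alternatives of the 40 called member results, 606 kept direction and call, 33 kept the direction alone and 7 reversed. For the listed genes named around them, 1270 alternatives kept direction and call, 120 kept the direction alone and 22 reversed. With Nexturastat A, 1 to 7 members were called as single libraries were left out, against 5: 1 without Ctrl replicate 1 or replicate 2, 6 without Nexturastat A replicate 1 and 7 without its replicate 2; among all genes 6112 became 1781 and 1921, and 3586 at a minimum mean CPM of 5. With shHDAC6-1, 5 members were called after scaling by library totals, 5 at a minimum mean CPM of 5 and 9 with GC and length trends removed, against 3. With shHDAC6-2 there were 5, 5 and 8, and 5 with DESeq2. With HPOB 2 members were called by DESeq2, 1 by limma voom and 0 to 1 as single libraries were left out, 1 without Tubastatin A replicate 2; with Tubastatin A there was 1 by each tool. With all 3 shCtrl libraries as 1 group, 1 member was called over Ctrl and 1 over DMSO, DUSP5 in both. Among all genes, HPOB gave 102 calls by DESeq2, 54 by voom and 78 without Tubastatin A replicate 2, against 4; shHDAC6-1 gave 3563 and 3160 without its replicate 1 or replicate 2, against 5401; and shHDAC6-2 gave 7439 with trends removed, against 4880. The causes were not tested.

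After removal of group means, same-numbered libraries had r of -0.152 to 0.201, with hairpin replicate 3 left out. In the Nexturastat A and hairpin experiments, both replicate numbers give the same r by construction. The check therefore cannot show whether same-numbered libraries share a batch. With the replicate block 7 members were called with shHDAC6-2, against 3; no other count of members called changed by over 1.5 times under the block in the libraries of each main comparison. With all 9 hairpin libraries, 0 members and 0 genes were called with either hairpin, and 0 with the replicate block added.

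Reversed log2 fold changes with all 9 libraries were, for shHDAC6-1, SPRY4 -0.28, SPRED1 -1.001, SPRED2 -0.27, CCND1 -0.22, EGR2 0.37, PTPN11 -0.42, ARAF 0.28, ELK1 0.060, ELK3 -0.72 and SRF 0.36. For shHDAC6-2 they were DUSP6 0.099, SPRED1 -1.04, SPRED2 -0.076, CCND1 -0.15, ETV1 -1.29, PTPN11 -0.34, ELK3 -0.79 and SRF 0.29. With the replicate block added they were SPRED1 -0.26, CCND1 -0.043, EGR2 0.67, PTPN11 -0.78 and ELK3 -0.16 for shHDAC6-1, and SPRED1 -0.39, ETV1 -0.50, PTPN11 -0.70 and ELK3 -0.19 for shHDAC6-2.

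Scaling by library totals reversed SPRED1 (0.066) with Nexturastat A, DUSP5 (-0.036) and ETV4 (-0.059) with shHDAC6-1 and ETV4 (-0.075) with shHDAC6-2. The minimum mean CPM of 5 reversed SPRED1 (0.092), DUSP5 (-0.014), ETV4 (-0.038) and ETV4 (-0.030) in the same comparisons. Removal of GC and length trends reversed DUSP6 (-0.17) with Nexturastat A, SPRY4 (0.062) with HPOB, ETV4 (-0.0091) with Tubastatin A, DUSP5 (-0.0082) in DMSO over Ctrl, SRF (-0.44) in shCtrl over Ctrl and DUSP1 (-0.31) in shCtrl over DMSO; the last was -0.044 with all 3 shCtrl libraries. By voom, SPRY4 with HPOB was 0.018, and DUSP4 and ETV5 with Tubastatin A were 6.07e-06 and 0.013. Without HPOB replicate 3 and Tubastatin A replicate 2, ETV5 was 0.020 with HPOB, and DUSP4 and ETV5 were 0.019 and 0.038 with Tubastatin A.

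As single libraries were left out, changes crossed 0 for DUSP6 and SPRED1 with Nexturastat A, DUSP5 and ETV4 with shHDAC6-1, ETV4 with shHDAC6-2, SPRY4 and ETV5 with HPOB, and DUSP4 and ETV5 with Tubastatin A; none of these was called. Their lowest and highest values were -0.14 and 0.20, -0.26 and 0.17, -0.013 and 0.12, -0.069 and 0.12, -0.23 and 0.22, -0.059 and 0.073, -0.086 and 0.020, -0.17 and 0.026, and -0.10 and 0.045, in that order.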
